A study of Mus musculus with 12 samples.

Results

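Sterol regulatory element-binding proteins (SREBPs) control many genes of sterol and fatty acid synthesis. Such genes, their regulators and genes of sterol transport were examined by RNA-seq in 12 libraries of androgenetic haploid mouse ESCs. These are embryonic stem cells whose only chromosome set comes from sperm. The set has 36 genes, chosen by symbol, and all 36 were found among the 24421 gene symbols of both deposited count tables. It holds 8 genes of the mevalonate steps, 11 of the steps between squalene formation and cholesterol, 5 regulators, 3 genes of sterol transport and 9 genes of fatty acid synthesis and modification. Not all of them are classical SREBP targets. All 36 had enough counts to be tested in every comparison. The libraries fall into 5 groups, all with a C57BL/6 strain background and all labelled androgenetic haploid ESCs. The Etl4 knockout (KO) groups were OdG Etl4 KO 1 and OdG Etl4 KO 2, numbered in the labels as separate KO lines of the OdG cell line, with 2 libraries each, and EG1 Etl4 KO, made from the EG1 cell line, with 3 libraries. They were set against OdG wild type (WT) with 2 libraries and EG1 WT with 3. The labels do not describe the edit, say whether each KO line is a single clone or give the ploidy of the cells at harvest. By its title, the series belongs to a genetic screen on the stability of the haploid state, and the comparisons here ask how these genes differ between KO and WT cells and whether the sterol and fatty acid arms differ in the same way.

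Cells sense cholesterol in the membrane of the endoplasmic reticulum. When sterols are scarce, the escort protein Scap carries the precursors of SREBPs to the Golgi, where proteases release a transcription factor that enters the nucleus. When sterols are plentiful, Insig proteins hold Scap in the endoplasmic reticulum. SREBP-2, encoded by Srebf2, acts mainly on genes of cholesterol synthesis and uptake, and SREBP-1, encoded by Srebf1, acts mainly on genes of fatty acid synthesis. Insig1 is itself an SREBP target.

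Library totals ran from 16110028 to 19706599 counts, so that 1 CPM (the counts of each library brought to a common total, with edgeR's TMM factors over the 12 libraries) stood for 15.9 to 19.7 counts. Etl4 stood at 96.1 to 112.7 CPM in the 4 OdG KO libraries, against 204 to 209 CPM in OdG WT, and at 132 to 135 CPM in EG1 Etl4 KO, against 262 to 267 CPM in EG1 WT. Counts per gene do not show the edit itself, and part of the transcript's reads remained in every KO library. All 8 pluripotency markers examined, including Pou5f1, Sox2 and Nanog, were above 1 CPM in every group, and their summed level was 7111 to 7167 CPM in OdG Etl4 KO 1, 6799 to 6815 CPM in OdG Etl4 KO 2 and 5811 to 5861 CPM in OdG WT, and 7904 to 8150.4 CPM in the EG1 libraries. The 10 fibroblast markers together gave 28.9 to 32.4 CPM in OdG Etl4 KO 1, 13.7 to 14.3 CPM in OdG Etl4 KO 2 and 25.1 to 25.5 CPM in OdG WT, with Col3a1, Postn, Dcn, Lum and S100a4 under 1 CPM in each. In the EG1 libraries they gave 10.7 to 15.3 CPM. The OdG WT libraries stood apart from the other 10 at some genes outside the set, of which a pair chosen after their values were seen are given. Guf1 had 3 and 3 counts and Gnpda2 0 and 1 counts in OdG WT, whereas each of the other 10 libraries had at least 587 and at least 231. Every comparison of OdG KO with OdG WT rests on those 2 WT libraries, and the comparisons of the 2 KO lines with WT share them.

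Across the 5 groups, most of the set was highest in OdG WT. Both OdG WT libraries lay above all of the other 10 libraries for 19 of the 36 genes (52.8%), against 19.6% of the 14977 genes tested over all 12 libraries. These were the sterol enzyme genes Hmgcs1, Sqle, Lss, Cyp51, Tm7sf2, Msmo1, Sc5d and Dhcr7, the regulators Srebf1, Srebf2, Insig1 and Insig2, the transport genes Stard4 and Apoe, and Acss2, Scd1, Scd2, Fads1 and Fads2 of the fatty acid arm. Fasn alone of the 36 had both OdG WT libraries below all of the other 10 (17.6% of all genes tested did). By mean level, OdG WT was the highest group for 20 genes, OdG Etl4 KO 2 for 7, EG1 WT for 6 and OdG Etl4 KO 1 for 3. OdG Etl4 KO 1 was the lowest group for 13 genes and EG1 Etl4 KO for 10. Per kilobase of exon in OdG WT, the highest values of the set were those of Apoe (406 CPM per kb), Scd2 (371) and Insig1 (173). The lowest were those of Hsd17b7 (4.45) and Acss2 (3.63). The length is the union of all annotated exons, 10163 bases for Acss2, which can exceed a single transcript and lower the value. By CPM alone Acss2 (36.9) stood above Hsd17b7 (22.7) and Pmvk (17.9).

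**Figure D1:**
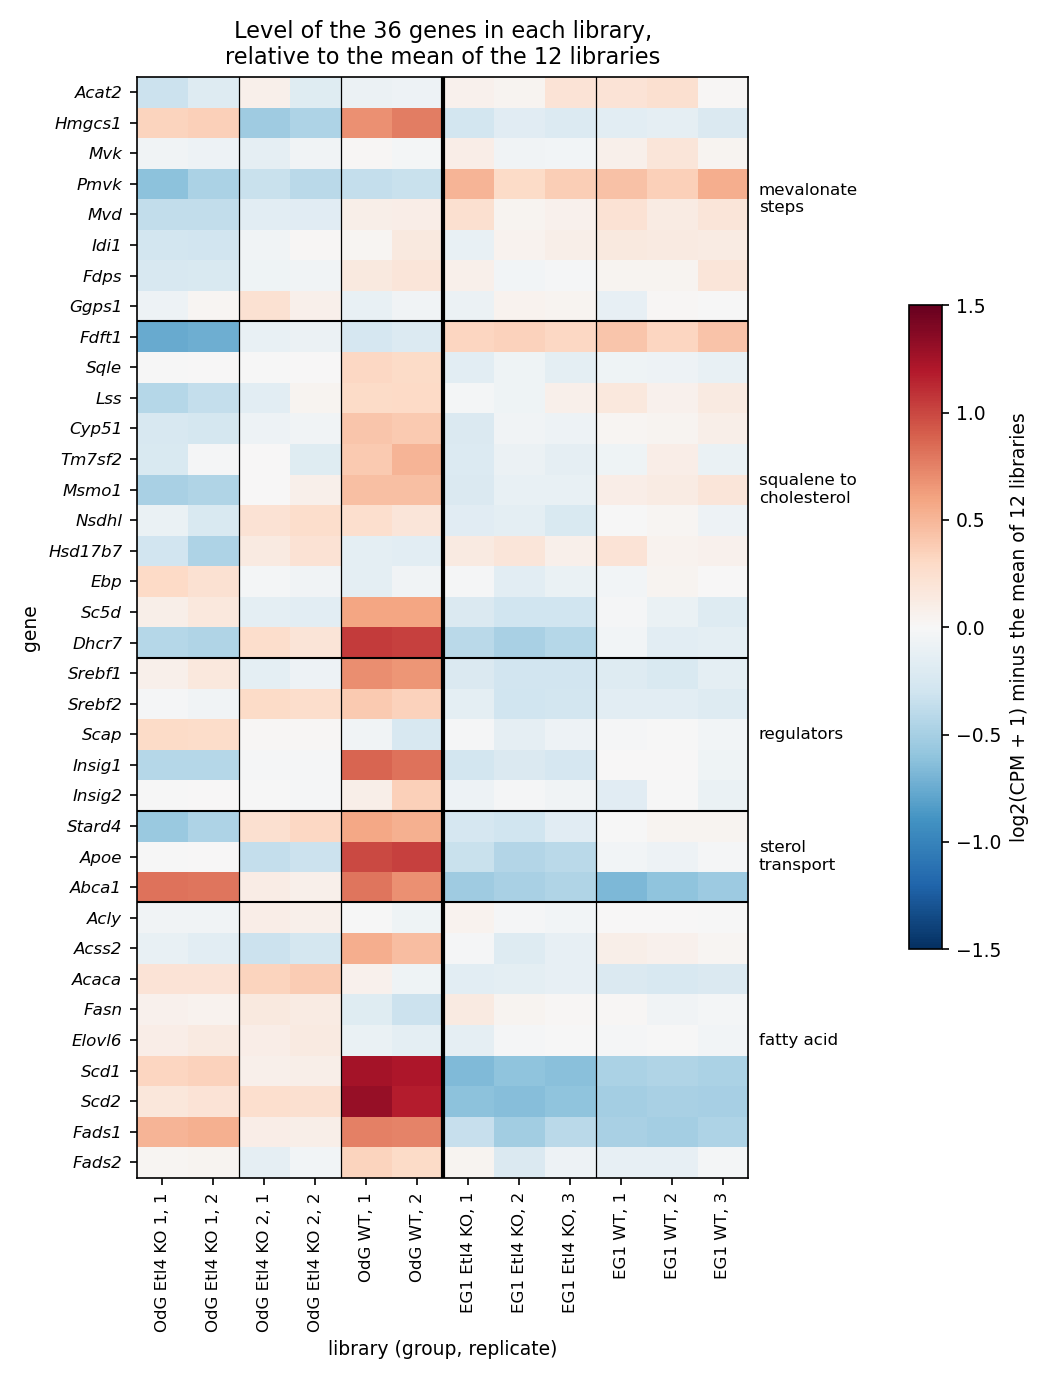
Level of each of the 36 genes (rows, grouped by role) in each of the 12 libraries (columns, grouped by cell line and genotype), as log2(CPM + 1) minus the mean of the 12 libraries; red is above and blue below that mean. The OdG WT columns are red at most rows, among them Dhcr7, Insig1, Apoe, Scd1 and Scd2, and pale or blue at Fasn, Scap, Ebp and Fdft1.

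In OdG KO cells, taken as the mean of both KO lines, 25 of the 36 genes were lower than in OdG WT and 7 were higher at an adjusted p under 0.05 (edgeR quasi-likelihood test, Benjamini-Hochberg over all 14413 genes tested). That is 69.4% of the set lower and 19.4% higher, beside 30.5% and 29.4% of all genes tested, and the median log2 fold change was -0.30, beside -0.01 for all genes tested. DESeq2 called 24 lower and 5 higher, and 6729 of all 14413 genes in either direction. Of the 7 higher, Ggps1 and Acly were not called by DESeq2, with a filter of at least 1 CPM or in a fit of all 12 libraries. All 4 KO libraries lay below both WT libraries for 23 of the 36 genes and above them for 4 (28.9% and 26.6% of all genes tested). In OdG Etl4 KO 1, 26 were lower and 5 higher (26.1% and 26.8% of all genes tested, 52.8% in either direction), and 28 had no overlap with WT from below and 6 from above (38.9% and 36.4%). In OdG Etl4 KO 2, 22 were lower and 8 higher (29.8% and 30%, 59.9% in either direction), and 24 lay without overlap below WT and 8 above (40.7% and 38.3%). With the 4 KO libraries treated as a single group, so that the difference between the KO lines enters the error, 16 of the 36 were lower and 3 higher than in OdG WT. That fit called 4609 of all 14413 genes tested in either direction. Of the edgeR calls for the mean of both lines, 13 were lost in it (adjusted p = 0.057 to 0.60). They were those of Hmgcs1, Idi1, Ggps1, Fdft1, Nsdhl, Ebp, Srebf2, Scap, Insig2, Stard4, Abca1, Acly and Fads1. The labels do not state that the replicates of a group are separate cultures. The p-values then speak only for the spread among these libraries, part or all of which may be technical. In bulk RNA, fewer cells that express a gene and less RNA per cell cannot be told apart.

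Among the regulators, Insig1 fell most, and log2 fold changes are given here ± the standard error of the fit. Insig1 (chromosome 5, 28071363 to 28078662, plus strand; GENCODE annotation of GRCm38) had 220.2 and 219.6 CPM in OdG Etl4 KO 1 and 293 and 294 CPM in OdG Etl4 KO 2, against 546 and 524 CPM in OdG WT. Every KO library lay far below both WT libraries, and KO 1 lay below KO 2 (OdG Etl4 KO 1: log2 -1.28 ± 0.034, adjusted p = 6.8e-15; OdG Etl4 KO 2: log2 -0.86 ± 0.033, adjusted p = 5.9e-13). Insig2, a paralog that is not a classical SREBP target, had 21.7 and 21.9 CPM in OdG Etl4 KO 1 and 21.8 and 21.6 CPM in OdG Etl4 KO 2, against 23.2 and 28.2 CPM in OdG WT. Its KO libraries all lay below WT, but 1 WT library was much closer to them than the other, and its difference was small (mean of both lines: log2 -0.23 ± 0.081, adjusted p = 0.019). Where a library of a group of 2 is left out, here and below, the library that remains is assumed to vary like those of the other groups. Insig2 was not called without OdG WT replicate 2 (log2 -0.09, adjusted p = 0.46), nor by DESeq2 (adjusted p = 0.085).

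Srebf1 had 99.2 and 105 CPM in OdG Etl4 KO 1 and 84.6 and 88.9 CPM in OdG Etl4 KO 2, against 153 and 150.1 CPM in OdG WT. It fell in both KO lines, more in KO 2 (log2 -0.80 ± 0.043) than in KO 1 (log2 -0.57 ± 0.042; KO 2 over KO 1: log2 -0.23 ± 0.045, adjusted p = 6.2e-04). The counts are per gene and do not separate the SREBP-1a and SREBP-1c transcripts. Srebf2 had 285 and 279 CPM in OdG Etl4 KO 1 and 351 and 346 CPM in OdG Etl4 KO 2, against 379 and 368 CPM in OdG WT. It fell in KO 1 (log2 -0.40 ± 0.034, adjusted p = 2.3e-08) and little in KO 2 (log2 -0.09 ± 0.033, adjusted p = 0.026). The KO 2 call was lost without OdG WT replicate 1, KO 2 replicate 1 or KO 2 replicate 2 (adjusted p = 0.075, 0.088 and 0.17) and by DESeq2 (adjusted p = 0.10).

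Scap, the sterol-sensing escort protein gene, went the other way. It had 112 and 110.5 CPM in OdG Etl4 KO 1 and 92.7 and 92.6 CPM in OdG Etl4 KO 2, against 88.1 and 77.6 CPM in OdG WT, so that all 4 KO libraries lay above both WT libraries and KO 1 was the highest. The log2 fold change was 0.43 ± 0.051 in KO 1 (adjusted p = 1.8e-06) and 0.17 ± 0.052 in KO 2 (adjusted p = 0.0089). In KO 2 the call was lost without OdG WT replicate 2 (log2 0.08, adjusted p = 0.15), KO 2 replicate 1 (adjusted p = 0.052) or KO 2 replicate 2 (adjusted p = 0.056).

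The promoters of several of these genes are shown because SREBPs act through short sites close to the start of transcription, together with the factor NF-Y, which binds CCAAT boxes. RefSeq promoter windows (GRCm38.p6, 250 bases before to 50 after a start) matched 29 of the 36 symbols, and Fdps, Fdft1, Sqle, Stard4, Scd1, Scd2 and Fads1 were not matched. A sterol regulatory element written as TCACNCCAC on either strand was found in the Hmgcs1 window only, 1 of 29 genes, against 1.44% of all 27025 genes with a window. The shorter TCACNCCA, which the longer motif contains and which was searched after the data had been seen, was found in Hmgcs1, Msmo1, Srebf2 and Apoe (4 of 29 genes, 13.8%, against 4.97%). CCAAT on either strand was in 22 of the 29 (75.9%, against 41.1%) and GGGCGG, the letters of a GC box, in 23 (79.3%, against 38.2%). The E-box form TCACGTGA was in 0 of the 29, against 1.12%. These are matches of letters and not measured binding sites. The 27025 genes include many that were not tested in these cells, whereas all members were. A gene counted where any of its windows held the motif, and Dhcr7, Srebf1, Insig2 and Scap had more than a single window. The shares were not matched for either point. The stretches from 250 to 51 bases before the start follow for Hmgcs1, Msmo1 and Srebf2, which hold TCACNCCA and fell in OdG KO, for Insig1, which fell most among the regulators, and for Fasn, which rose. They run 5′ to 3′ on the gene's own strand, with TCACNCCA and CCAAT matches of either strand in capitals.
Hmgcs1 (chr13:119690101-119690300, plus strand): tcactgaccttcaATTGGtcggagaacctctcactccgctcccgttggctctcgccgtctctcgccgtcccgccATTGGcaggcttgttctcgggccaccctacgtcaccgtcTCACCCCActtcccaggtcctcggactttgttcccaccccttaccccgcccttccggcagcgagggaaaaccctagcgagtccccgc
Msmo1 (chr8:64733629-64733828, minus strand): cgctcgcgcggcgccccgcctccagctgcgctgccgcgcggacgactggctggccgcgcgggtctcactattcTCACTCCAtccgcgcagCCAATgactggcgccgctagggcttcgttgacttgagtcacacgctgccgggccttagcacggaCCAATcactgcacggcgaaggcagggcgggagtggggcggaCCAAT
Srebf2 (chr15:82147019-82147218, plus strand): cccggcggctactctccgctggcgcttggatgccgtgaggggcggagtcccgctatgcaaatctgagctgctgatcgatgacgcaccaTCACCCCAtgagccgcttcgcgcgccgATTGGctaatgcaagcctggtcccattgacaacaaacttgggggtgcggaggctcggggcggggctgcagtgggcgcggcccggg
Insig1 (chr5:28071162-28071361, plus strand): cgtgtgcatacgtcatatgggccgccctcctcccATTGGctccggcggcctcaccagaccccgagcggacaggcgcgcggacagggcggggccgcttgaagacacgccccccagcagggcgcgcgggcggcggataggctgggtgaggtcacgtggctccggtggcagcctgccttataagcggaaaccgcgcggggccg
Fasn (chr11:120824598-120824797, minus strand): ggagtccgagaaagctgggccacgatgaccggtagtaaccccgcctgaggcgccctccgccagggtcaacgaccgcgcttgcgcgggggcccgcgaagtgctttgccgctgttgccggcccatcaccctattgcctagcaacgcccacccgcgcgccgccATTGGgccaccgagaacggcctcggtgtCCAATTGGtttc

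In these stretches Hmgcs1 and Srebf2 carry TCACCCCA and Msmo1 carries TCACTCCA, each with a CCAAT box nearby, which reads ATTGG where it lies on the other strand. Insig1 has a CCAAT match but no TCACNCCA, and the same holds for Fasn. In the stretches shown, CCAAT matches were thus found in genes that fell and in Fasn, which rose. Of the genes higher in both OdG KO lines, Scap, Acaca and Elovl6 had no CCAAT match in their windows. Apoe and Fads2, lower in both KO lines, had none either. Whether a CCAAT match goes with the direction of change was not tested.

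The mevalonate steps turn acetyl-CoA into isoprenoid units. Of their 8 genes, 5 were lower and 0 higher in OdG Etl4 KO 1, and 3 were lower and 1 higher in OdG Etl4 KO 2. The shares called over all genes tested were 26.1% lower and 26.8% higher in KO 1, and 29.8% lower and 30% higher in KO 2, so that the 3 of 8 lower in KO 2 are near the share of all genes. Hmgcs1, which makes the substrate of the rate-limiting reductase, had 217 and 220.4 CPM in OdG Etl4 KO 1 and 119 and 125 CPM in OdG Etl4 KO 2, against 278 and 295 CPM in OdG WT. The 3 groups did not overlap, and the KO lines stood further from each other than KO 1 stood from WT (KO 1: log2 -0.38 ± 0.04; KO 2: log2 -1.22 ± 0.042; KO 2 over KO 1: log2 -0.84 ± 0.042, adjusted p = 5.4e-11). Mvd, the diphosphomevalonate decarboxylase gene, had 39.1 and 39.3 CPM in OdG Etl4 KO 1 and 45.5 and 45.0 CPM in OdG Etl4 KO 2, against 54.1 and 54.8 CPM in OdG WT. Fdps, which makes farnesyl diphosphate, had 104 and 105 CPM in OdG Etl4 KO 1 and 118 and 118 CPM in OdG Etl4 KO 2, against 136 and 139 CPM in OdG WT. Both were lowest in KO 1 and highest in WT without overlap (Mvd: log2 -0.47 ± 0.059 in KO 1 and -0.26 ± 0.058 in KO 2; Fdps: log2 -0.40 ± 0.039 and -0.21 ± 0.039).

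Idi1, the isopentenyl diphosphate isomerase gene, had 47.8 and 47.1 CPM in OdG Etl4 KO 1 and 55.6 and 58.4 CPM in OdG Etl4 KO 2, against 58.9 and 64.3 CPM in OdG WT. It fell in KO 1 (log2 -0.37 ± 0.06, adjusted p = 5.1e-05) and did not pass in KO 2 (log2 -0.10 ± 0.058, adjusted p = 0.14; without OdG WT replicate 1, adjusted p = 0.031). The kinase gene Mvk had 24.0 and 23.6 CPM in OdG Etl4 KO 1 and 22.6 and 24.0 CPM in OdG Etl4 KO 2, against 25.2 and 24.5 CPM in OdG WT, so that all 4 KO libraries lay slightly below both WT libraries, but neither line passed the test (log2 -0.06 ± 0.081 and -0.08 ± 0.081, adjusted p = 0.58 and 0.40). The next kinase gene, Pmvk, did not pass in either line (log2 -0.21 ± 0.096 in KO 1 and -0.02 ± 0.094 in KO 2). Acat2, which encodes cytosolic acetoacetyl-CoA thiolase, fell in KO 1 (log2 -0.17 ± 0.064, adjusted p = 0.031) but not without KO 1 replicate 1 (log2 -0.11, adjusted p = 0.28), and stood at log2 0.05 ± 0.063 in KO 2. Ggps1, which diverts farnesyl diphosphate to geranylgeranyl diphosphate and away from sterols, was higher in KO 2 (log2 0.25 ± 0.073, adjusted p = 0.0075). That call was lost without KO 2 replicate 1 (adjusted p = 0.12).

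The steps from squalene to cholesterol hold many of the genes that fell. Of their 11 genes, 10 were lower and 1 higher in OdG Etl4 KO 1 (median log2 -0.52), and 7 were lower and 2 higher in OdG Etl4 KO 2 (median log2 -0.34), beside the 26.1% lower and 26.8% higher of all genes in KO 1 and the 29.8% lower and 30% higher in KO 2. Dhcr7, which encodes the reductase of the last step, had 46.5 and 45.8 CPM in OdG Etl4 KO 1 and 75.5 and 72.1 CPM in OdG Etl4 KO 2, against 131 and 129 CPM in OdG WT. The 3 groups were far apart, with WT highest (KO 1: log2 -1.49 ± 0.046, adjusted p = 5.4e-14; KO 2: log2 -0.81 ± 0.043, adjusted p = 4.7e-11). Msmo1, a C4-methyl sterol oxidase gene, had 76.1 and 78.0 CPM in OdG Etl4 KO 1 and 107 and 112 CPM in OdG Etl4 KO 2, against 146 and 146 CPM in OdG WT, and again WT was highest and KO 1 lowest (log2 -0.92 ± 0.042 and -0.40 ± 0.04). Sc5d, the lathosterol 5-desaturase gene, had 51.2 and 53.8 CPM in OdG Etl4 KO 1 and 43.3 and 43.0 CPM in OdG Etl4 KO 2, against 73.1 and 72.7 CPM in OdG WT. Here KO 2 was the lower of the KO lines (log2 -0.47 ± 0.053 in KO 1 and -0.75 ± 0.054 in KO 2).

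Of the other enzymes of these steps, Cyp51 (lanosterol demethylase; log2 -0.65 ± 0.038 in KO 1 and -0.46 ± 0.038 in KO 2), Lss (lanosterol synthase; log2 -0.70 ± 0.064 and -0.34 ± 0.062), Tm7sf2 (a sterol C14-reductase; log2 -0.59 ± 0.099 and -0.54 ± 0.098) and Sqle (squalene epoxidase; log2 -0.30 ± 0.037 and -0.29 ± 0.037) were lower in each KO line. Nsdhl, a sterol C4-decarboxylase gene on the X chromosome, was lower in KO 1 (log2 -0.38 ± 0.054) and stood at log2 0.04 ± 0.052 in KO 2 (adjusted p = 0.56). Ebp, the sterol isomerase gene, was higher in KO 1 (log2 0.37 ± 0.043) and stood at log2 0.07 ± 0.044 in KO 2 (adjusted p = 0.19; without OdG WT replicate 2, 0.028).

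A pair of genes of these steps were on opposite sides of WT in the KO lines. Fdft1, which encodes squalene synthase, was at 65.9 ± 0.700 CPM in KO 1 and 103 ± 1.24 CPM in KO 2, against 94.7 ± 2.21 CPM in WT (SD, n = 2 each). It fell in KO 1 (log2 -0.52 ± 0.045, adjusted p = 3.5e-08) and was higher in KO 2 (log2 0.13 ± 0.042, adjusted p = 0.013). The higher level in KO 2 was not called by DESeq2 (adjusted p = 0.085), without OdG WT replicate 1 (adjusted p = 0.058) or without KO 2 replicate 2 (adjusted p = 0.092). Hsd17b7, a 3-keto sterol reductase gene, was at 19.3 ± 1.74 CPM in KO 1 and 28.7 ± 1.11 CPM in KO 2, against 22.7 ± 0.215 CPM in WT. It was higher in KO 2 (log2 0.35 ± 0.084, adjusted p = 0.0018), and its fall in KO 1 (log2 -0.23 ± 0.089, adjusted p = 0.042) was lost by DESeq2 (adjusted p = 0.16). That fall was also lost when any 1 library other than KO 1 replicate 1 was left out (adjusted p = 0.058 to 0.32, the highest without KO 1 replicate 2). The KO lines themselves differed at both genes (Fdft1 KO 2 over KO 1: log2 0.65 ± 0.044, adjusted p = 3.0e-09; Hsd17b7: log2 0.57 ± 0.086, adjusted p = 4.7e-05).

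Of the 3 transport genes, Stard4 and Apoe fell in both KO lines. Stard4, which encodes a cytosolic cholesterol carrier, had 26.8 and 28.7 CPM in OdG Etl4 KO 1 and 47.5 and 49.6 CPM in OdG Etl4 KO 2, against 59.9 and 58.2 CPM in OdG WT. Its KO 2 libraries were close to WT and its KO 1 libraries far below (log2 -1.09 ± 0.065 in KO 1 and -0.27 ± 0.06 in KO 2). Apoe, which encodes the lipid carrier apolipoprotein E, had 431 and 435 CPM in OdG Etl4 KO 1 and 339 and 345 CPM in OdG Etl4 KO 2, against 857 and 880.0 CPM in OdG WT, with KO 2 lowest (log2 -1.0 ± 0.03 in KO 1 and -1.34 ± 0.031 in KO 2). Endoderm also expresses Apoe. The summed level of 12 primitive endoderm markers was 912 to 924 CPM in KO 1, 579 to 589.8 CPM in KO 2 and 1034 to 1075 CPM in WT. Of the 12, Sox17, Sox7 and Foxa2 were under 1 CPM in each of these groups and Gata6 in both KO lines. The 5 hepatic-like endoderm markers summed to 4.41 to 11.5 CPM in KO 1, 2.05 to 8.44 CPM in KO 2 and 0.472 to 3.63 CPM in WT, with Afp, Ttr and Apoa1 under 1 CPM in each. The part of such cells in the Apoe values was not tested. Abca1, the sterol exporter gene, had 124 and 124 CPM in OdG Etl4 KO 1 and 76.3 and 74.4 CPM in OdG Etl4 KO 2, against 123 and 114 CPM in OdG WT. It fell in KO 2 (log2 -0.65 ± 0.045, adjusted p = 1.4e-09) and not in KO 1 (log2 0.07 ± 0.043, adjusted p = 0.19), where it was called higher without OdG WT replicate 1 (adjusted p = 0.02).

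**Figure D2:**
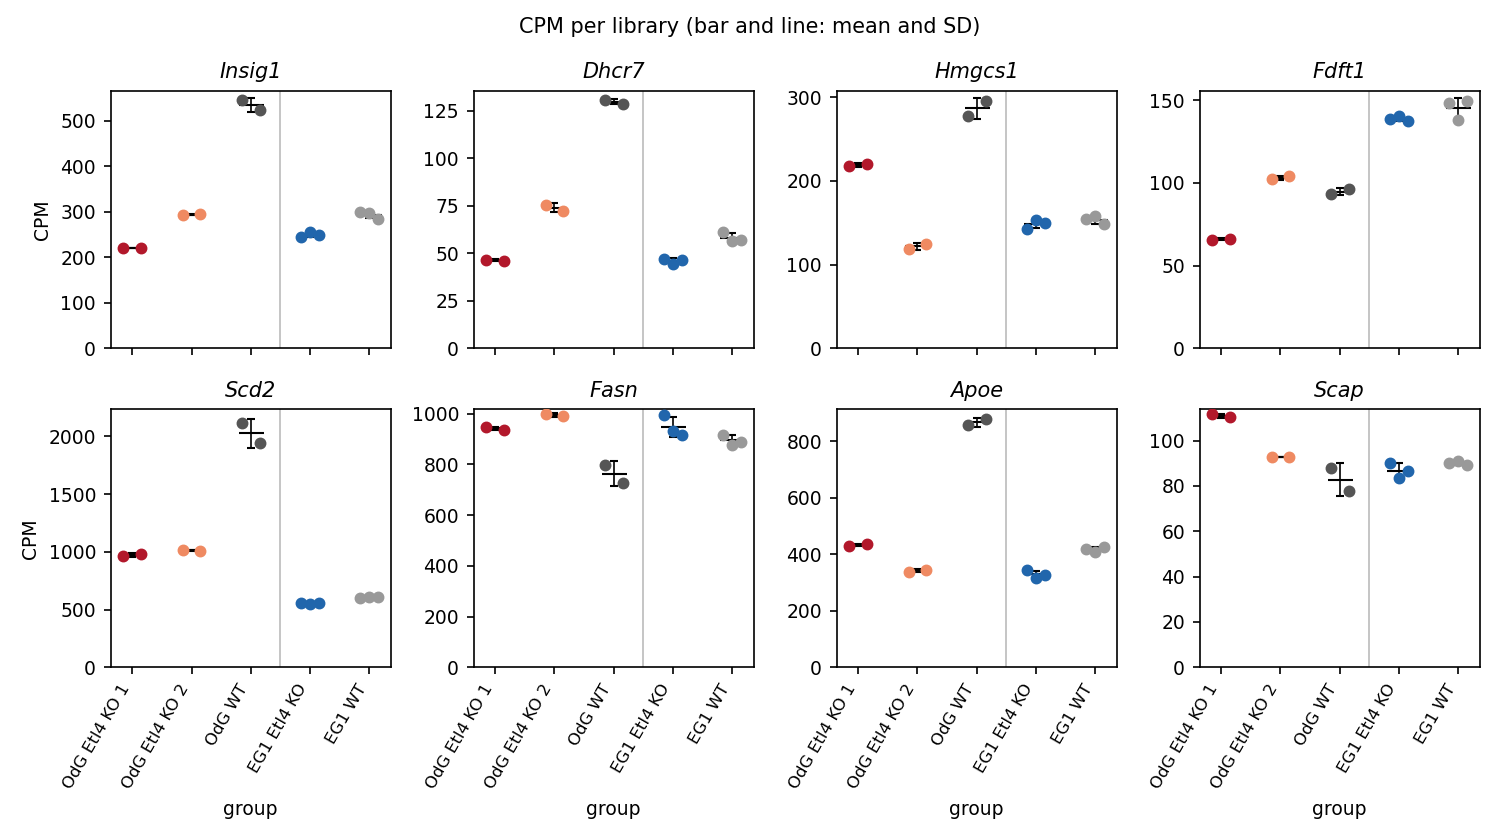
CPM of 8 genes of the set in every library (points), with the group mean (horizontal line) and SD (whiskers, n = 2 per OdG group and 3 per EG1 group); each vertical axis starts at 0 and a grey line divides the OdG from the EG1 groups. Insig1, Dhcr7, Scd2 and Apoe were highest in OdG WT, Hmgcs1 was lower in OdG Etl4 KO 2 than in KO 1, Fdft1 was lower in KO 1 than in KO 2, and Fasn and Scap were lowest in OdG WT by group mean.

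In the OdG KO cells the fatty acid arm held genes called lower and genes called higher. In each KO line, 5 of its 9 genes were lower than in WT (26.1% of all genes tested in KO 1 and 29.8% in KO 2), and these were Acss2 and the desaturase genes Scd1, Scd2, Fads1 and Fads2. Acaca, Fasn and Elovl6, which encode acetyl-CoA carboxylase, fatty acid synthase and an elongase, were higher in each. The higher calls numbered 3 in KO 1 (33.3%) and 4 in KO 2 (44.4%), beside 26.8% and 30% of all genes tested. The share in KO 1 is near that of all genes, and the arm has only 9 genes. Scd2, a stearoyl-CoA desaturase gene (chromosome 19, 44293674 to 44306864, plus strand), had 963 and 984 CPM in OdG Etl4 KO 1 and 1016 and 1012 CPM in OdG Etl4 KO 2, against 2117 and 1940.5 CPM in OdG WT. Its paralog Scd1 (chromosome 19, 44394455 to 44407879, minus strand) had 292 and 296 CPM in OdG Etl4 KO 1 and 246 and 247 CPM in OdG Etl4 KO 2, against 555 and 543 CPM in OdG WT. For either gene every KO library was below both WT libraries (Scd2: log2 -1.06 ± 0.033 in KO 1 and -0.99 ± 0.032 in KO 2; Scd1: log2 -0.90 ± 0.032 and -1.15 ± 0.032).

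Scd1 and Scd2 are alike in sequence and lie close together on chromosome 19, so the split of their reads depends on the authors' counting. Acss2, which makes acetyl-CoA from acetate, had 23.8 and 23.0 CPM in OdG Etl4 KO 1 and 20.4 and 21.2 CPM in OdG Etl4 KO 2, against 38.0 and 35.7 CPM in OdG WT, all KO libraries below WT (log2 -0.65 ± 0.076 and -0.81 ± 0.078). In the annotation Acss2 overlaps other genes on the opposite strand, as do Acaca, Elovl6, Cyp51, Fdft1, Ggps1, Hmgcs1, Idi1, Lss, Mvd, Srebf1, Scap and Insig2. Fdps and Tm7sf2 overlap a protein-coding gene on their own strand. No label says that counting used strand, so reads of the overlaps cannot be told apart. Fads1, the delta-5 desaturase gene, had 259 and 263 CPM in OdG Etl4 KO 1 and 194 and 194 CPM in OdG Etl4 KO 2, against 307 and 304 CPM in OdG WT, in the order KO 2, KO 1 and WT without overlap (log2 -0.22 ± 0.034 in KO 1 and -0.65 ± 0.034 in KO 2). Its neighbour Fads2, the delta-6 desaturase gene, showed log2 -0.27 ± 0.042 and -0.39 ± 0.043.

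Fasn was at 942 ± 6.93 CPM in KO 1 and 995 ± 7.16 CPM in KO 2, against 763 ± 49.7 CPM in WT (SD, n = 2 each), and all KO libraries were above both WT libraries (log2 0.31 ± 0.035 and 0.39 ± 0.035). Acaca showed log2 0.20 ± 0.046 in KO 1 and 0.37 ± 0.045 in KO 2, and Elovl6 log2 0.24 ± 0.034 and 0.25 ± 0.034. These rises were smaller than the falls of Scd1 and Scd2, with adjusted p of at most 0.0011. Acly, which makes cytosolic acetyl-CoA from citrate, was at log2 -0.01 ± 0.029 in KO 1 (adjusted p = 0.85) and was higher in KO 2 (log2 0.13 ± 0.029, adjusted p = 6.3e-04).

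**Figure D3:**
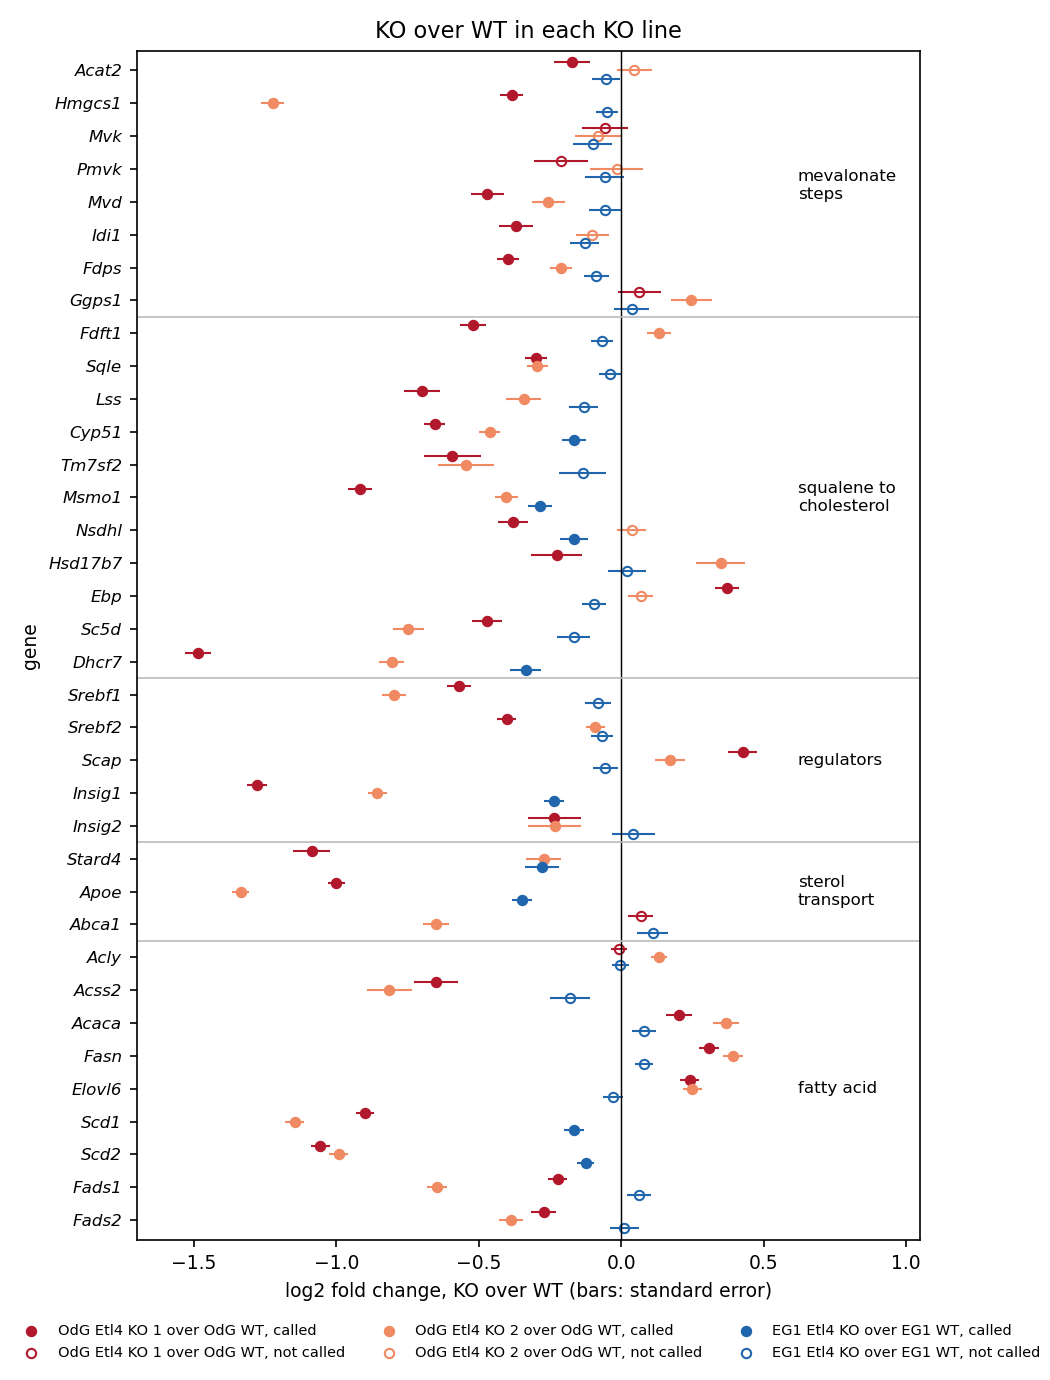
Log2 fold change of KO over WT for each of the 36 genes (rows, by role) in OdG Etl4 KO 1, OdG Etl4 KO 2 and EG1 Etl4 KO, with standard errors; filled points passed an adjusted p under 0.05 (edgeR) and open points did not. The EG1 points lie between log2 -0.35 and 0.11, while the OdG points reach log2 -1.49 at Dhcr7 and 0.43 at Scap, and Acaca, Fasn and Elovl6 lie right of 0 in both OdG KO lines.

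Taken as arms, the 19 sterol synthesis enzymes and the 9 fatty acid genes were set side by side. In OdG Etl4 KO 1, 15 sterol enzymes were lower and 1 higher, with a median log2 fold change of -0.38, against -0.22 for the fatty acid genes. In OdG Etl4 KO 2, 10 were lower and 3 higher, with a median of -0.21, against -0.39. Of all genes tested, 26.1% were lower and 26.8% higher in KO 1, and 29.8% and 30% in KO 2. The gap between the medians (sterol minus fatty acid) was thus -0.16 in KO 1 and 0.18 in KO 2, on opposite sides of 0, and 0.03 for the mean of the KO lines. The median of the fatty acid genes lies between its falling and rising members. Without Scd1 and Scd2 the gap was -0.38 in KO 1, -0.34 in KO 2 and -0.36 for the mean of the lines. The arms themselves were given no test, since the genes were chosen with results of these data known.

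In single libraries, the mean log2(CPM + 1) of the 19 sterol enzymes was 5.84 and 5.86 in KO 1, 6.01 and 6.01 in KO 2 and 6.25 and 6.27 in OdG WT. The 3 groups did not overlap. For the 9 fatty acid genes it was 8.04 and 8.04 in KO 1, 7.97 and 7.99 in KO 2 and 8.34 and 8.27 in OdG WT, with the KO lines close together and WT above both. In EG1 Etl4 KO the sterol enzymes were at 6.02, 6.02 and 6.03, against 6.14, 6.13 and 6.12 in EG1 WT. The fatty acid genes were at 7.71, 7.64 and 7.68 in EG1 Etl4 KO, against 7.71, 7.70 and 7.71 in EG1 WT. The EG1 groups were therefore apart for the sterol arm and overlapped for the fatty acid arm.

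**Figure D4:**
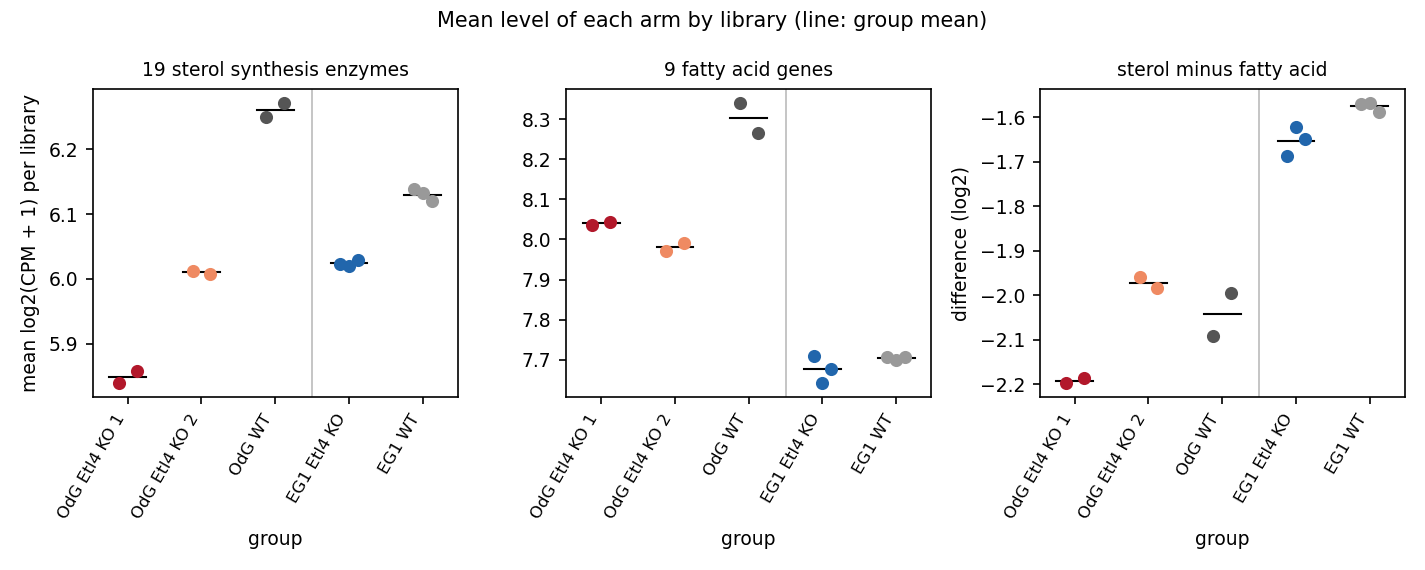
Mean log2(CPM + 1) of the 19 sterol synthesis enzymes (left), of the 9 fatty acid genes (middle) and their difference (right) in each library (points), with the group mean (line). Sterol enzymes were lower in each KO group than in its WT group; the fatty acid genes were lower in both OdG KO lines than in OdG WT, and the EG1 groups overlapped. The vertical axes do not start at 0.

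The KO lines of OdG were then compared with each other, a comparison that does not use the WT libraries in its contrast. 16 of the 36 genes were higher in KO 2 than in KO 1 and 10 were lower (18.6% and 19.2% of all genes tested, 37.8% in either direction). The KO lines did not overlap at 20 genes higher and 11 lower in KO 2 (34.5% and 36.3% of all genes tested). Of the 19 sterol enzymes, 11 were higher in KO 2 and 3 lower (median log2 0.20), and of the 9 fatty acid genes 2 were higher and 3 lower (median log2 0.01). The largest differences upward in KO 2 were at Stard4 (log2 0.81 ± 0.067, adjusted p = 3.4e-08), Dhcr7 (log2 0.68 ± 0.049, adjusted p = 6.7e-09), Fdft1, Hsd17b7 and Msmo1 (log2 0.52 ± 0.043). The largest downward were at Hmgcs1, Abca1 (log2 -0.72 ± 0.045, adjusted p = 1.1e-09), Fads1 (log2 -0.42 ± 0.035) and Apoe (log2 -0.34 ± 0.031). Hmgcs1, Sc5d and Ebp were the sterol enzyme genes lower in KO 2. The adjusted p of Mvd, higher in KO 2 (log2 0.21 ± 0.061), rose above 0.05 when any 1 of the 4 KO libraries was left out (0.0501 to 0.0674). The Acat2 call (log2 0.22 ± 0.064) was lost without KO 1 replicate 1 or KO 2 replicate 1 (adjusted p = 0.16 and 0.33). The Acaca call (log2 0.16 ± 0.045) was lost without KO 1 replicate 1, KO 1 replicate 2 or KO 2 replicate 2 (adjusted p = 0.059 to 0.10). The Fads2 call, lower in KO 2 (log2 -0.11), was lost without KO 1 replicate 1, KO 1 replicate 2 or KO 2 replicate 1 (adjusted p = 0.159 to 0.388), and by DESeq2 (adjusted p = 0.227), RLE size factors (0.0549), the 1 CPM filter (0.0505) and a fit of all 12 libraries (0.108). The count of fatty acid genes higher in KO 2 ranged from 1 to 4 as single libraries were left out, with Acaca lost as above and Fasn and Scd2 called without OdG WT replicate 1 (adjusted p = 5.5e-04 and 0.0045) or OdG WT replicate 2 (adjusted p = 1.8e-04 and 0.0016).

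In the EG1 cell line the same genes moved little. In EG1 Etl4 KO, 9 of the 36 were lower than in EG1 WT (25% of the set, beside 4.06% of the 14016 genes tested) and 0 were higher (3.6%, with 7.66% called in either direction). All KO libraries lay below all WT libraries for 12 of the 36 and above them for 2 (12.3% and 12.7% of all genes tested). Without the adjustment edgeR called 14 lower and 1 higher at p under 0.05, and DESeq2 with adjustment called 8 and 0. DESeq2 called 703 of all 14016 genes in either direction. The share of all genes at an unadjusted p under 0.05 was not computed, so the 14 cannot be set against it. The 9 were Cyp51, Msmo1, Nsdhl and Dhcr7 of the sterol enzymes, Insig1, Stard4 and Apoe, and Scd1 and Scd2. Each of them was also called lower in OdG KO taken as the mean of both lines (9 of the 9 in EG1 and 9 of the 25 in OdG). The same 9 were lower in OdG Etl4 KO 1, but only 8 of them in OdG Etl4 KO 2. Nsdhl was not lower in KO 2 (log2 0.04 ± 0.052, adjusted p = 0.56). Of all genes tested, 26.1% were lower in KO 1 and 29.8% in KO 2. In OdG KO 69.4% of the set and 30.5% of all genes tested were lower. How many of all genes lower in EG1 Etl4 KO were also lower in OdG KO was not computed. The median log2 fold change over the 19 sterol enzymes was -0.10 and over the 9 fatty acid genes -0.0029.

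Apoe had the largest change, with 344, 318 and 327 CPM in EG1 Etl4 KO, against 419, 409 and 427 CPM in EG1 WT (log2 -0.35 ± 0.035, adjusted p = 9.3e-09). The summed level of the 12 primitive endoderm markers was 1111 to 1161 CPM in EG1 Etl4 KO and 1035 to 1047 CPM in EG1 WT. Gata6, Sox7 and Foxa2 were under 1 CPM in both groups. The 5 hepatic-like endoderm markers summed to 1.03 to 1.58 CPM in EG1 Etl4 KO and 0.407 to 1.30 CPM in EG1 WT. Of these, Afp, Ttr, Apoa1 and Alb were under 1 CPM in both. The part of such cells in the Apoe values was not tested. Dhcr7 had 47.2, 44.6 and 46.2 CPM in EG1 Etl4 KO, against 61.2, 56.2 and 56.7 CPM in EG1 WT (log2 -0.34 ± 0.054, adjusted p = 5.2e-05). Msmo1 had 91.8, 98.8 and 98.7 CPM in EG1 Etl4 KO, against 115, 116 and 121 CPM in EG1 WT (log2 -0.29 ± 0.042, adjusted p = 1.5e-05). In Apoe, Dhcr7 and Msmo1 every KO library was below every WT library. Stard4 had 33.2, 32.2 and 35.4 CPM in EG1 Etl4 KO, against 39.9, 41.0 and 41.2 CPM in EG1 WT (log2 -0.28 ± 0.059, adjusted p = 0.0021). Insig1 had 245, 255 and 249 CPM in EG1 Etl4 KO, against 298, 298 and 285 CPM in EG1 WT (log2 -0.24 ± 0.035, adjusted p = 1.3e-05), again without overlap. Scd1 had 147, 153 and 149.7 CPM in EG1 Etl4 KO, against 167, 169 and 167 CPM in EG1 WT. Scd2 had 559, 548 and 560.3 CPM in EG1 Etl4 KO, against 601, 608 and 606 CPM in EG1 WT (Scd1: log2 -0.17 ± 0.037, adjusted p = 0.003; Scd2: log2 -0.12 ± 0.03, adjusted p = 0.0075), with the groups apart but close. Cyp51 (log2 -0.17 ± 0.041) lost its call without EG1 WT replicate 3 (adjusted p = 0.076). Nsdhl (log2 -0.17 ± 0.049) lost its call without EG1 WT replicate 1, EG1 WT replicate 2 or EG1 Etl4 KO replicate 3 (adjusted p = 0.11, 0.17 and 0.15) and by DESeq2 (adjusted p = 0.075).

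The other regulators did not pass in EG1. Srebf1 had 80.9, 76.7 and 76.8 CPM in EG1 Etl4 KO, against 82.3, 80.2 and 85.0 CPM in EG1 WT. Srebf2 had 260.0, 235 and 239 CPM in EG1 Etl4 KO, against 259, 258 and 251 CPM in EG1 WT. Scap had 90.1, 83.4 and 86.5 CPM in EG1 Etl4 KO, against 90.02, 90.9 and 89.1 CPM in EG1 WT. The KO and WT libraries overlapped for these 3 genes, but Srebf2 was called lower without EG1 Etl4 KO replicate 1 (adjusted p = 0.018). Insig2 had 20.7, 21.6 and 21.1 CPM in EG1 Etl4 KO, against 19.4, 21.8 and 20.3 CPM in EG1 WT, also with overlap. Of the mevalonate genes, Hmgcs1 had 143, 153 and 149 CPM in EG1 Etl4 KO, against 155, 158 and 148 CPM in EG1 WT. Mvd had 60.3, 52.5 and 53.4 CPM in EG1 Etl4 KO, against 59.2, 55.6 and 57.8 CPM in EG1 WT. The groups overlapped in both, unlike in OdG. Fdps had 129, 119.8 and 121 CPM in EG1 Etl4 KO, against 126, 126 and 140.0 CPM in EG1 WT, and Mvk had 26.7, 24.0 and 24.2 CPM in EG1 Etl4 KO, against 26.3, 28.3 and 25.7 CPM in EG1 WT, again with overlap in both. Idi1 had 53.3, 60.3 and 61.3 CPM in EG1 Etl4 KO, against 63.9, 63.8 and 63.2 CPM in EG1 WT, with every KO library below WT and no call (log2 -0.13 ± 0.053, adjusted p = 0.14).

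Sc5d had 41.2, 38.9 and 38.8 CPM in EG1 Etl4 KO, against 47.3, 44.6 and 41.7 CPM in EG1 WT. Acss2 had 25.3, 22.4 and 23.5 CPM in EG1 Etl4 KO, against 27.4, 27.0 and 26.2 CPM in EG1 WT. All KO libraries were below all WT libraries for both genes, and both were called without EG1 Etl4 KO replicate 1 (adjusted p = 0.037 and 0.043), as was Ebp (adjusted p = 0.018). Abca1 had 48.5, 49.9 and 51.3 CPM in EG1 Etl4 KO, against 43.8, 46.3 and 48.2 CPM in EG1 WT. Here the KO libraries lay above the WT libraries by a small margin (log2 0.11 ± 0.055, adjusted p = 0.24). Fads1 had 143, 126 and 137 CPM in EG1 Etl4 KO, against 129, 128 and 131 CPM in EG1 WT, in overlapping groups. Fasn (log2 0.08 ± 0.032), Acaca (log2 0.08 ± 0.043) and Elovl6 (log2 -0.03 ± 0.035), which were higher in OdG KO, did not pass in EG1.

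Whether the difference between KO and WT was unlike in the cell lines was tested as an interaction over all 12 libraries. Because OdG WT stood apart at genes such as Guf1 and Gnpda2, loss of Etl4 and other differences between the OdG KO lines and OdG WT cannot be told apart, here or in the OdG comparisons, and OdG effect means only KO minus WT in that line. It passed for 27 of the 36 genes, 22 with a lower value of the OdG than of the EG1 effect and 5 with a higher one (19.5% and 20.2% of all 14977 genes tested, 39.8% in either direction). Of the 19 sterol enzymes 10 had a lower OdG effect and 1 a higher one, and of the 9 fatty acid genes 5 and 3. The largest differences were at Scd2 (log2 -0.91 ± 0.041, adjusted p = 4.6e-17), Scd1 (log2 -0.87 ± 0.045), Insig1 (log2 -0.84 ± 0.045), Apoe (log2 -0.83 ± 0.045) and Dhcr7 (log2 -0.82 ± 0.066). Those with a higher OdG effect were Scap (log2 0.35 ± 0.063), Ebp (log2 0.31 ± 0.058), Elovl6 (log2 0.27 ± 0.048), Fasn (log2 0.26 ± 0.047) and Acaca (log2 0.20 ± 0.057, not called without OdG WT replicate 2, adjusted p = 0.11).

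The WT libraries of the parental cell lines also differed at these genes. In EG1 WT, 22 of the 36 were lower than in OdG WT and 7 higher (35.4% and 35% of all genes tested, 70.3% in either direction). The WT groups did not overlap at 22 genes lower and 11 higher in EG1 WT (39.6% and 39% of all genes tested). Scd2 was at 605 ± 3.60 CPM in EG1 WT (SD, n = 3), against 2029 ± 125 CPM in OdG WT (SD, n = 2), and Scd1 at 168 ± 1.32 CPM, against 549 ± 8.89 CPM (log2 -1.74 ± 0.031 and -1.71 ± 0.033). Abca1 (log2 -1.37 ± 0.049, adjusted p = 3.4e-21), Fads1 (log2 -1.24 ± 0.04), Dhcr7 (log2 -1.16 ± 0.047) and Apoe (log2 -1.05 ± 0.034) were also lower in EG1 WT, by at least a log2 difference of 1. Pmvk (log2 0.82 ± 0.084) and Fdft1 (log2 0.62 ± 0.043) were the genes of the set most clearly higher in EG1 WT. The median over the 9 fatty acid genes was log2 -0.41 and over the 19 sterol enzymes -0.07, beside 0.00 for all genes tested. Each cell line has its own table, so cell line and table cannot be told apart.

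Genes of the same pathways outside the set were examined in 3 lists. Of 11 genes of sterol handling and of its LXR regulators, 10 were tested in OdG, where 8 were lower and 0 higher in KO (mean of both lines; Nr1h3 was not tested), beside 30.5% lower and 29.4% higher over all genes tested. DESeq2 called 0 higher, and edgeR without the adjustment 0. Soat1, which esterifies cholesterol for storage, was at 47.9 ± 0.0143 CPM in KO 1 and 49.6 ± 2.61 CPM in KO 2, against 107 ± 1.63 CPM in OdG WT (SD, n = 2 each; mean of both lines: log2 -1.13 ± 0.042, adjusted p = 4.2e-13). Npc2, which moves cholesterol out of lysosomes, also fell (log2 -0.38 ± 0.029).

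Of 15 genes of acyl chain supply and glycerolipid synthesis, 10 were lower and 3 higher in OdG KO, again beside 30.5% and 29.4% of all genes. Slc25a1, the mitochondrial citrate carrier gene (log2 -0.71 ± 0.03), Me1, an NADPH-producing malic enzyme gene (log2 -0.62 ± 0.031), and Lpin1, a phosphatidate phosphatase gene (log2 -0.57 ± 0.042), fell. Acacb, which encodes the mitochondrial acetyl-CoA carboxylase, was higher in KO 1 (log2 0.74 ± 0.046, adjusted p = 4.8e-10). Of 5 genes of SREBP processing and degradation, 2 were lower and 1 higher, by small amounts, beside 30.5% and 29.4% of all genes, among them the ubiquitin ligase gene Rnf139 (log2 -0.17 ± 0.064) and the site-1 protease gene Mbtps1 (log2 0.11 ± 0.033). The site-2 protease gene Mbtps2 was higher in KO 1 (log2 0.12 ± 0.044) and lower in KO 2 (log2 -0.15 ± 0.045). Between the KO lines, Mylip, which encodes a ubiquitin ligase for lipoprotein receptors, was higher in KO 2 (log2 0.87 ± 0.12), and Tmem97 (log2 -0.43 ± 0.047), Hsd17b12 (log2 -0.38 ± 0.038) and Tecr (log2 -0.31 ± 0.039) were lower. In EG1 Etl4 KO, edgeR called 1 gene of the 3 lists lower, Slc25a1 of the acyl chain list (log2 -0.17 ± 0.042, adjusted p = 0.0097), and 0 higher. That is 6.67% of the acyl chain list lower. Of all 14016 genes tested, 4.06% were lower and 3.6% higher, so this count is near the share of all genes. At an unadjusted p under 0.05 edgeR had 2, 0 and 0 higher in the lists of processing, sterol handling and acyl chains, and DESeq2 called 0, 0 and 0. The share of all genes at that unadjusted threshold was not computed.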

How the data were processed

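RNA of 12 libraries of mouse haploid embryonic stem cells was sequenced, and the authors deposited whole-number read counts per gene in 2 tables, one per cell line. The submitters' processing notes name the build mm10, featureCounts 1.6.4, HISAT2 2.1.0, CASAVA and DESeq2, without settings. Counts were tested in R 4.3.3 with edgeR 4.0.16 (trimmed mean of M values, filterByExpr, quasi-likelihood F test, Benjamini-Hochberg over all genes tested, threshold 0.05), in a fit of 3 groups for OdG, a fit of 2 groups for EG1 and a fit of all 12 libraries for the interaction and for EG1 WT against OdG WT. These kept 14413, 14016 and 14977 genes. Printed levels are CPM computed from the deposited counts, scaled over all 12 libraries. Levels per kilobase used the union of exons in GENCODE vM21 (GRCm38). DESeq2 1.42.0 was an alternative, with other scalings, filters, fits and left-out libraries. Fits were tested on simulated data. The genes, lists and tests were chosen with earlier results of these data known. All 36 genes are named, with values in every library for the regulators and for the genes with the largest changes per list, by OdG KO (3), EG1 KO (2) and KO 2 over KO 1 (1). Outside the set up to 3 called genes per list and comparison, by adjusted p, were eligible, and some of these are not reported here. Depth, from 16110028 to 19706599 counts, sets the counting error, and the biological coefficient of variation was 3.34% in OdG and 3.53% in EG1. No pair of replicates agreed within sampling noise. That spread, and the coefficient above, may be partly or wholly technical and do not show separate cultures. Each library was counted as 1 replicate.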

Additional observations from a re-analysis of the deposited data

Results flagged for a closer look

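The difference between KO and WT was unlike in the OdG and EG1 cell lines at 27 of the 36 genes, tested as an interaction (edgeR quasi-likelihood test, adjusted p under 0.05). Of all 14977 genes tested, 39.8% passed, 19.5% with a lower and 20.2% with a higher OdG effect. An effect means only KO minus WT. In OdG, loss of Etl4 and other differences between the KO lines and WT cannot be told apart. Each of the 27 genes is given here as the OdG effect minus the EG1 effect on the log2 scale. Among sterol synthesis enzymes with a lower OdG effect these were Hmgcs1 (-0.76), Mvd (-0.31), Fdps (-0.23), Sqle (-0.27), Lss (-0.40), Cyp51 (-0.40), Tm7sf2 (-0.44), Msmo1 (-0.38), Sc5d (-0.45) and Dhcr7 (-0.82). Among regulators they were Srebf1 (-0.61), Srebf2 (-0.19), Insig1 (-0.84) and Insig2 (-0.29), and among transport genes Stard4 (-0.41), Apoe (-0.83) and Abca1 (-0.41). In the fatty acid arm they were Acss2 (-0.56), Scd1 (-0.87), Scd2 (-0.91), Fads1 (-0.50) and Fads2 (-0.35). The OdG effect was higher at Ebp (0.31), Scap (0.35), Acaca (0.20), Fasn (0.26) and Elovl6 (0.27). Adjusted p was at most 0.035 over these genes, the highest being that of Insig2, whose interaction was not called by DESeq2 (adjusted p = 0.092). Without OdG WT replicate 2 it was -0.14 (adjusted p = 0.382), and it also lost its call without KO 1 replicate 1, KO 1 replicate 2, KO 2 replicate 2, EG1 WT replicate 1, EG1 WT replicate 3, EG1 Etl4 KO replicate 2 or EG1 Etl4 KO replicate 3 (adjusted p = 0.0502 to 0.0947). Both parts of the difference rest on few libraries, 2 of OdG WT on the OdG side. No group had the 4 to 10 libraries needed to look for a single library far from the rest of its group.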

How the results depend on the processing

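No called log2 fold change of the 36 genes changed sign under any of these alternatives: RLE size factors kept the call of 250 of 252 values over the 7 comparisons, DESeq2 239, no low-count filter 249, a 1 CPM filter 248, and all 12 libraries in one fit 177 of 180. Leaving out 1 library at a time kept 1857 of 1944. With the 4 OdG KO libraries as a single group 23 of 36 kept their call, with 16 genes lower, 3 higher and 0 sterol enzymes higher. That fit called 4609 of all 14413 genes tested in either direction. The count of sterol enzymes higher in OdG KO (2) was 1 by DESeq2, with the 1 CPM filter, with the replicate block and with all 12 libraries in one fit, and 1 to 2 as libraries were left out. The replicate numbers did not pair the samples (correlations of same-numbered deviations -0.037 to 0.032), and the block, which could not be fitted for EG1 WT against OdG WT, ended 3 calls among 216 values. The gap between the arm medians depended on its members. With means in place of medians it was -0.040 in OdG KO (0.03 with medians), 0.073 in KO 2, 0.23 for KO 2 over KO 1, 0.039 for the interaction and 0.47 for EG1 WT over OdG WT. Without Scd1 and Scd2, which can share reads, it was -0.36 in OdG KO, -0.38 in KO 1, -0.34 in KO 2, -0.28 for the interaction and 0.16 for EG1 WT over OdG WT. Without Ggps1 the last was 0.28. As libraries were left out the gap was -0.21 to -0.15 in KO 1, 0.13 to 0.23 in KO 2, 0.16 to 0.24 for KO 2 over KO 1, 0.088 to 0.18 for the interaction and 0.30 to 0.37 for EG1 WT over OdG WT. Fatty acid genes higher then numbered 1 to 4 for KO 2 over KO 1 and 1 to 2 for EG1 WT over OdG WT. A pseudocount of 0.25 gave KO 1 a sterol minus fatty acid level of -2.21 (-2.19 with 1). The cause of the lost calls was not tested.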
